A study of Sus scrofa with 13 samples.

Results

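Transcript levels of the core circadian clock genes were described in the longissimus lumborum, the main muscle of the loin, of 13 pigs. The genes were chosen by name, as ARNTL, CLOCK, PER1, PER2, PER3, CRY2, NR1D1, NR1D2, DBP and TEF, wherever the symbol could be tied to a gene present in the count tables of both breeds. Of these 10 symbols, 8 were matched among the 25322 genes counted. ARNTL was found under its newer name BMAL1. NR1D1 and TEF matched no gene identifier and were not analysed here.

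The pigs were females aged 6 months of Hampshire and Pietrain, sire breeds used to raise lean meat content, kept under the same housing and feeding. Unrelated animals were picked within each breed from the extremes of loin weight at dissection, which gave 3 Hampshire pigs with low loin weight (pigs 1, 2 and 3), 3 Hampshire pigs with high loin weight (pigs 8, 9 and 10), 3 Pietrain pigs with low loin weight (pigs 3, 5 and 8) and 4 Pietrain pigs with high loin weight (pigs 1, 2, 6 and 7). Muscle was sampled right after slaughter, and the labels give neither the hour nor the day, so breed or loin weight group cannot be told apart from time of sampling. The numbers are names of pigs and do not pair them across groups.

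The clock is a feedback loop of transcription that runs in nearly every cell, skeletal muscle included. The proteins of ARNTL and CLOCK join to switch on the PER and CRY genes, whose products return to the nucleus and block that pair. The REV-ERB receptors (NR1D1 and NR1D2) repress ARNTL, RORA activates it, and D-box factors such as DBP pass the rhythm on to other genes. ARNTL therefore cycles out of phase with PER, REV-ERB and DBP transcripts, and the level in a single sample depends on the hour at which it was taken.

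Each muscle library gave between 11312755 and 20134612 counted reads. Values per pig are CPM, read counts scaled for the size and composition of each library by TMM normalization. A gene was called when edgeR's quasi-likelihood test gave a Benjamini-Hochberg adjusted p-value under 0.05 over all genes tested and the fold change was at least 1.2. Of 12 markers of muscle fibres, 7 were matched, none was at 0 in all pigs, and their summed level lay between 76600 and 226600 CPM. Fibroblast markers (5 of 6 matched, none at 0 in all pigs) summed to 1867 to 4850 CPM in Hampshire pigs with high and 731.8 to 1573 CPM in Hampshire pigs with low loin weight. Macrophage markers (7 of 8 matched, none at 0 in all pigs) summed to 146.2 to 200 CPM and 49.42 to 123.9 CPM in the same groups. Endothelial markers (5 matched) summed to 169.3 to 187.1 CPM with high and 132.6 to 167.6 CPM with low loin weight in Hampshire. Adipocyte markers (3 matched) went the other way in sum, at 69.33 to 89.54 CPM with high and 133.3 to 168.5 CPM with low loin weight. Gene by gene they did not all do so, since 2 of the 3 had positive log2 fold changes and 1 a negative one (median 1.715). None of these 4 marker sums overlapped between the Hampshire groups. Among single genes, 45.9% of all tested did not overlap either. Muscle fibre sums did overlap, at 156500 to 226600 CPM with high and 124100 to 188100 CPM with low loin weight. Gene by gene, 3 of the 7 fibre markers were called higher and 1 lower (median log2 fold change 0.69). Of all genes tested 12.0% were called higher and 14.6% lower. Blood marker sums overlapped too, at 82.41 to 239.6 and 45.45 to 175.2 CPM. The part of these cells in the results that follow was not tested, and in a piece of whole muscle fewer cells of a type cannot be told apart from less RNA per cell.

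Within the Hampshire breed, 3 clock genes were lower at high than at low loin weight, namely CLOCK, PER2 and NR1D2. No clock gene was called higher. PER1, PER3 and DBP had negative log2 fold changes that did not pass the test, CRY2 lay near 0 and ARNTL was positive without passing. Of all 12228 genes tested in this comparison 26.6% were called, with 14.6% of the genes tested lower and 12.0% higher, and the 3 of 8 stand against that background. The median log2 fold change of the 8 genes was -0.92, against 0.03 over all genes tested. In these 3 genes every pig with high loin weight lay under every pig with low loin weight. Of all genes tested 45.9% had no overlap in this comparison, and 23.5% had none with the lower values at high loin weight.

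**Figure D1:**
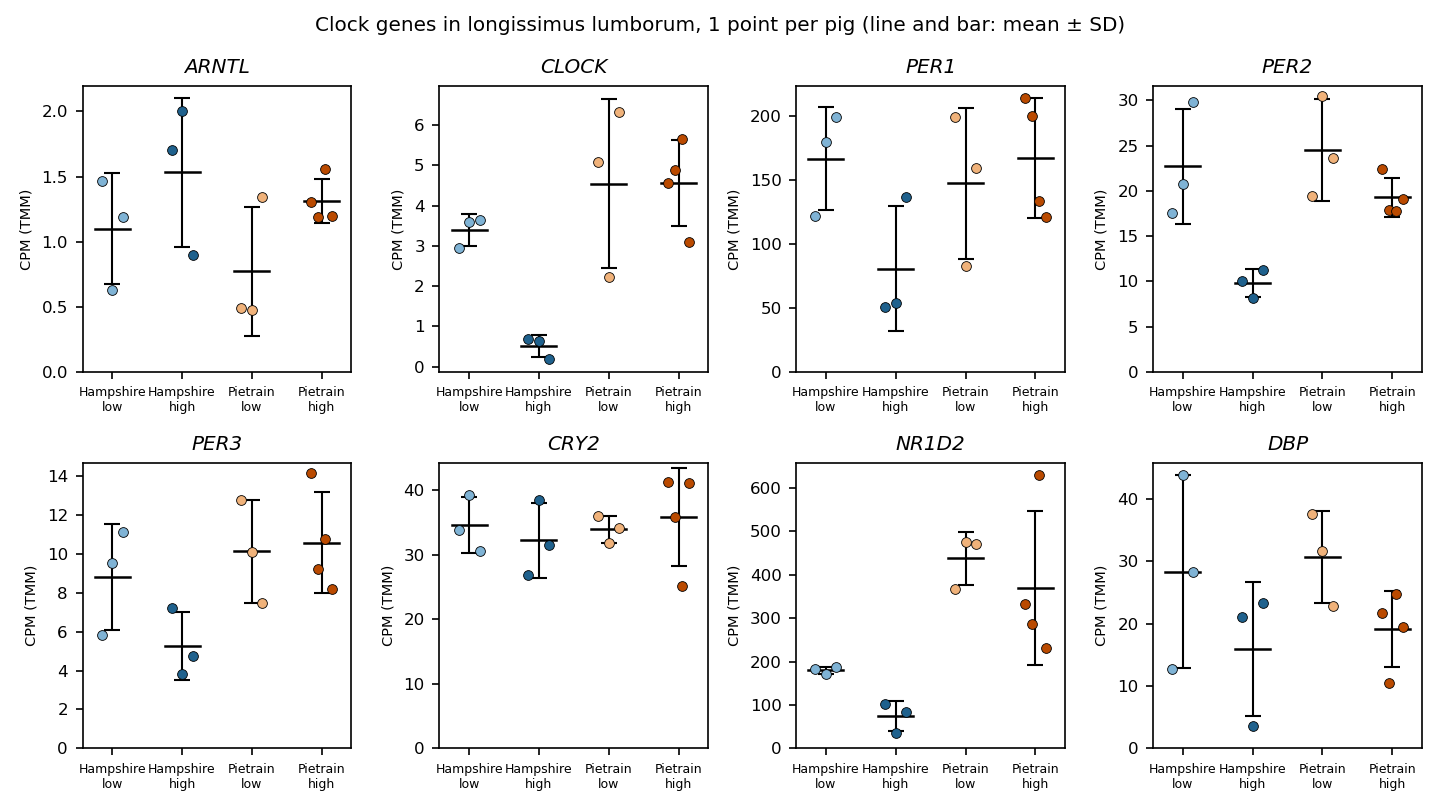
Level of the 8 clock genes in each pig, in CPM after TMM normalization, with 1 point per pig and the mean ± SD of each group as a line and bar; the axes differ between genes. CLOCK in the Hampshire pigs with high loin weight lies between 0.192 and 0.681 CPM, under all other pigs, and NR1D2 falls into a lower Hampshire and a higher Pietrain range.

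CLOCK, which encodes the partner of ARNTL and carries histone acetyltransferase activity, had the largest log2 fold change of the 8 in Hampshire. Its level was 2.94, 3.597 and 3.64 CPM in Hampshire pigs 1, 2 and 3 with low loin weight and 0.681, 0.636 and 0.192 CPM in pigs 8, 9 and 10 with high loin weight. All 3 pigs with high loin weight stood below every other pig of the series. Its log2 fold change was -2.77 (SE 0.43, adjusted p = 0.00436), and CLOCK was called whichever pig was left out, with values between -3.13 and -2.36. The low level rested on few reads, with 10, 7 and 3 counts in pigs 8, 9 and 10 and 48 to 74 counts in the low group. An exact two-sided permutation test gave p = 0.1, the smallest that 3 pigs against 3 allow.

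ARNTL, the other activator (ENSSSCG00000013397), was counted few times in every pig. In Hampshire pigs with low loin weight it was at 1.47, 0.632 and 1.19 CPM, and in those with high loin weight at 1.70, 2.00 and 0.895 CPM. The groups overlapped. A log2 fold change of 0.47 (SE 0.45, adjusted p = 0.466) was about as large as its error, on 13 to 25 counts per pig.

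PER2 encodes a repressor of the ARNTL and CLOCK pair and lies on chromosome 15 at 152264832 to 152286818 (Sscrofa10.2). It measured 17.5, 20.7 and 29.8 CPM in the Hampshire pigs with low loin weight and 10.1, 8.18 and 11.3 CPM in those with high loin weight. Each pig with high loin weight was under each pig with low loin weight. PER2 fell by 1.199 on the log2 scale (SE 0.24, adjusted p = 0.00909) and was called in all 6 fits that left out a pig.

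PER1, a period gene that glucocorticoids can also induce, lies on chromosome 12 at 55836902 to 55851908. Its level was 121, 179.5 and 199 CPM in Hampshire pigs with low loin weight. With high loin weight it was 50.7, 54.1 and 137 CPM. Pig 10 reached into the range of the low group, while pigs 8 and 9 were the lowest of all 13 pigs. At -1.04 (SE 0.39) its log2 fold change did not pass the test (adjusted p = 0.0759). Without Hampshire high pig 10 it was -1.68 and was called (adjusted p = 0.0118), and DESeq2 called it on all 6 pigs (adjusted p = 0.0145).

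PER3, the least studied of the period genes, lies on an unplaced scaffold at 34090 to 91114. It was at 5.82, 9.53 and 11.1 CPM with low and at 7.22, 3.82 and 4.73 CPM with high loin weight in Hampshire. The groups overlapped through low pig 1 and high pig 8. PER3 had a log2 fold change of -0.74 (SE 0.31, adjusted p = 0.103), which did not pass but was called without low pig 1 (adjusted p = 0.0491) or without high pig 8 (adjusted p = 0.0495).

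CRY2, a cryptochrome that joins the PER proteins in repression, lies on chromosome 2 at 17893141 to 17916392. Hampshire pigs had 33.9, 39.3 and 30.6 CPM with low and 26.8, 38.5 and 31.5 CPM with high loin weight. The ranges lay over each other. Its log2 fold change was -0.11 (SE 0.18, adjusted p = 0.699).

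NR1D2 encodes REV-ERB beta, a heme-binding repressor of ARNTL, on chromosome 13 at 12197567 to 12222739. In Hampshire it measured 183, 171 and 187 CPM with low loin weight, a narrow range, and 102, 35.8 and 84.4 CPM with high loin weight. The groups did not overlap, and pig 9 was the lowest of the series. NR1D2 had a log2 fold change of -1.28 (SE 0.33, adjusted p = 0.0225). The call was lost without high pig 10 (adjusted p = 0.0508) and without low pig 3 (adjusted p = 0.0725), with the log2 fold change at -1.40 and -1.27.

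DBP encodes a D-box activator of the PAR bZIP family and lies on chromosome 6 at 49734283 to 49740069. It varied widely within groups, at 12.8, 43.8 and 28.4 CPM in Hampshire pigs with low and 21.0, 3.64 and 23.3 CPM in those with high loin weight. The groups overlapped. DBP had a log2 fold change of -0.81 (SE 0.60, adjusted p = 0.340), and it was -0.35 without low pig 2 and -0.39 without high pig 9.

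**Figure D2:**
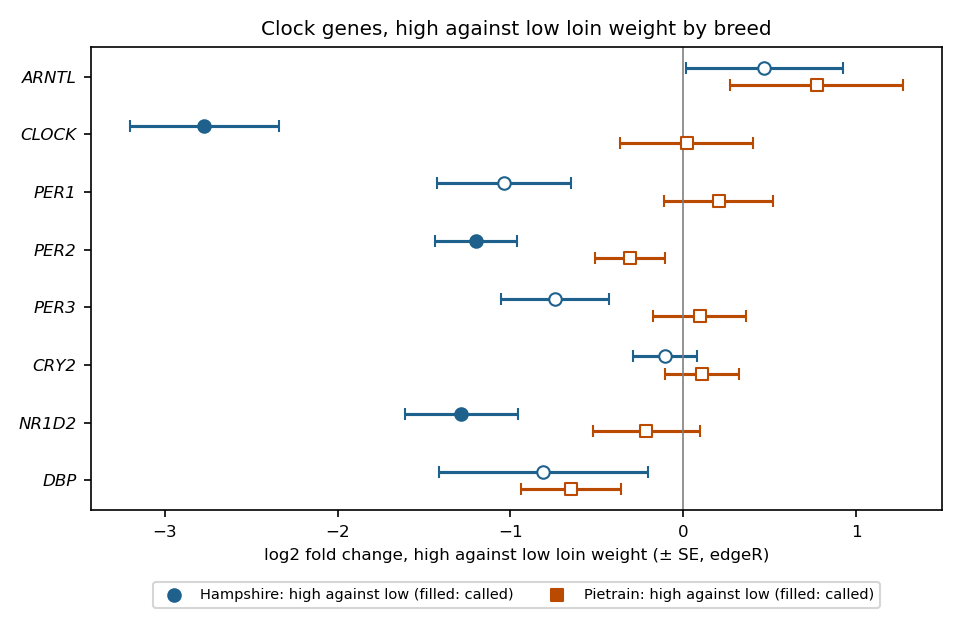
Log2 fold change of high against low loin weight for the 8 clock genes in each breed, with bars of ± 1 SE from edgeR; filled symbols were called. In Hampshire CLOCK at -2.77, PER2 at -1.199 and NR1D2 at -1.28 were called, and no gene was called in Pietrain.

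Longer genes were lower in Hampshire pigs with high loin weight. Across 9945 genes with coordinates, the log2 fold change and the gene span had a Spearman correlation of -0.386, and genes share their libraries, so this is a description with no p. The spans ran from 5787 bases for DBP to 57025 bases for PER3, and CLOCK and ARNTL had no coordinates. With the trend removed by an offset per pig, the median of all genes moved from 0.03 to 0.14. PER2 stayed at -1.04 (adjusted p = 0.0111) and NR1D2 at -1.14 (adjusted p = 0.0214), PER1 was -0.9998 (adjusted p = 0.0617) and DBP -1.03 (adjusted p = 0.169). PER3, the longest, went to -0.35 (adjusted p = 0.364), and CRY2 turned to 0.08 (adjusted p = 0.827).

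**Figure D3:**
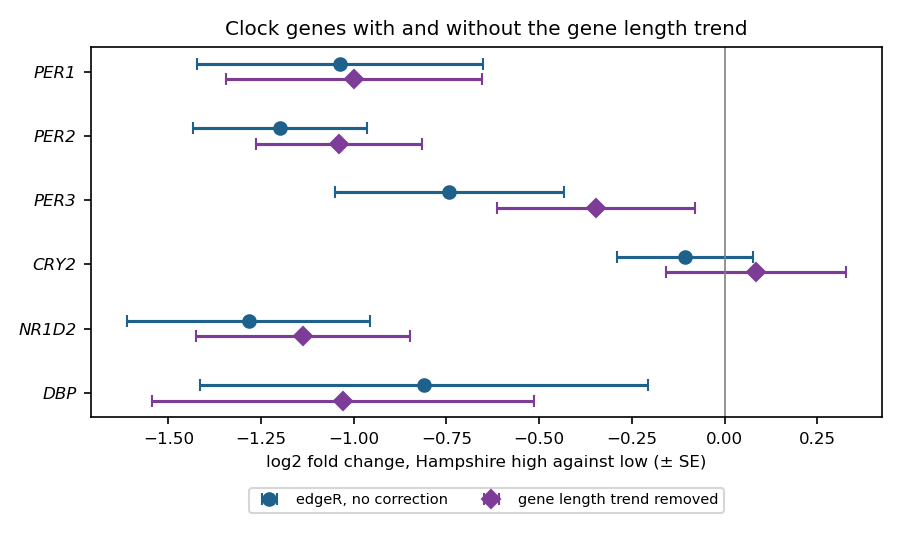
Log2 fold change of Hampshire pigs with high against low loin weight for the 6 clock genes with coordinates, with bars of ± 1 SE, before and after the trend with gene length was removed. PER1, PER2, NR1D2 and DBP lie between -1.14 and -0.9998 after removal, DBP having moved from -0.81 to -1.03, PER3 moved from -0.74 to -0.35, and CRY2 crossed 0.

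In Pietrain none of the 8 clock genes was called between the loin weight groups, by edgeR or by DESeq2. The background was 0% of 12065 genes by edgeR, with 1 gene called by DESeq2. The authors reported many differentially expressed genes between the Pietrain groups with DESeq2 at the same thresholds. What made their result differ was not tested. At an unadjusted p under 0.05 edgeR had 1 of the 8 genes, DBP, where 398 of all genes (3.30%) passed. The median log2 fold change of the 8 was 0.06, against 0.02 over all genes tested. All 8 genes overlapped between the groups, where 4.59% of all genes did not overlap.

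CLOCK was at 5.09, 2.22 and 6.32 CPM in Pietrain pigs 3, 5 and 8 with low loin weight and at 4.56, 4.89, 5.65 and 3.10 CPM in pigs 1, 2, 6 and 7 with high loin weight. The low group spanned the high group, and the log2 fold change was 0.02 (SE 0.38, adjusted p = 0.997). PER2 measured 19.4, 30.5 and 23.7 CPM with low and 22.4, 17.9, 17.7 and 19.1 CPM with high loin weight. The groups overlapped, and the change was -0.31 on the log2 scale (SE 0.20, adjusted p = 0.939). NR1D2 ranged from 368 to 476 CPM with low and from 230.2 to 629 CPM with high loin weight, and pig 6 of the high group was the highest of the series. The change in NR1D2 was -0.22 on the log2 scale (SE 0.31, adjusted p = 0.942).

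DBP in Pietrain was at 37.6, 31.7 and 22.9 CPM with low loin weight and at 21.7, 10.6, 24.7 and 19.5 CPM with high. Pig 6 of the high group lay above the lowest pig of the low group. For DBP the log2 fold change was -0.65 (SE 0.29) with an unadjusted p of 0.048 in edgeR and an adjusted p of 0.939. An exact two-sided permutation test gave p = 0.114 for DBP, where the smallest possible is 0.0286.

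ARNTL was at 0.493, 0.475 and 1.34 CPM with low and at 1.30, 1.19, 1.56 and 1.1999 CPM with high loin weight in Pietrain. Pig 8 of the low group lay among the high group, and the log2 fold change was 0.77 (SE 0.50, adjusted p = 0.939). PER1 ranged from 82.7 to 199 CPM with low and from 121 to 214 CPM with high loin weight, and the change was 0.20 on the log2 scale (SE 0.32). For PER3 the ranges were 7.46 to 12.8 CPM and 8.20 to 14.2 CPM (log2 fold change 0.09, SE 0.27), and for CRY2 31.8 to 35.97 CPM and 25.2 to 41.3 CPM (log2 fold change 0.11, SE 0.21).

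The difference between the breeds in the loin weight effect was tested in 1 fit of all 13 pigs, which shares every pig with the comparisons within breeds. Of the 8 clock genes, only CLOCK passed, and 5.90% of the 12831 genes tested did, 4.22% in the direction of CLOCK. The log2 fold change of CLOCK in Hampshire minus that in Pietrain was -2.76 (SE 0.61, adjusted p = 0.0187), and the call held in all 13 fits that left out a pig (highest adjusted p = 0.0449). PER1 differed by -1.23 (SE 0.54, adjusted p = 0.197) and passed only without Hampshire high pig 10 (-1.90, adjusted p = 0.0464). For PER2 the difference was -0.85 (SE 0.32, adjusted p = 0.131) and for NR1D2 -1.03 (SE 0.50, adjusted p = 0.248), so a call in Hampshire and none in Pietrain does not by itself show that these genes differ between the breeds. PER3 (-0.81), ARNTL (-0.26), CRY2 (-0.18) and DBP (-0.14) did not pass either. The median of the 8 was -0.83, and that of all genes -0.02.

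Hampshire and Pietrain pigs were also set side by side at the same loin weight. The counts of the breeds stand in separate tables without normalization, and breed cannot be told apart from the unlabelled hour, day or sequencing run. Among pigs with low loin weight, 1 of the 8 genes was called, NR1D2, where 17.9% of all genes tested were called and 10.1% were called lower. NR1D2 measured 183, 171 and 187 CPM in Hampshire and 368, 476 and 472 CPM in Pietrain. The breeds did not overlap, as in 42.8% of all genes tested (21.4% with the lower values in Hampshire), and the log2 fold change of Hampshire against Pietrain was -1.28 (SE 0.37, adjusted p = 0.0325). The call held only without Pietrain low pig 3 (adjusted p = 0.0360) and was lost in the other 5 fits that left out a pig, with adjusted p up to 0.117 while the log2 fold change stayed between -1.34 and -1.18. The other 7 genes overlapped, with log2 fold changes from -0.42 (CLOCK) to 0.48 (ARNTL). The median of the 8 was -0.11, and that of all genes 0.00.

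Among pigs with high loin weight, 5 of the 8 genes were lower in Hampshire than in Pietrain, against 46.8% of all genes called and 24.2% called lower. The Hampshire pigs with high loin weight are those of the comparison within Hampshire, so the low values of this group enter both. Of the 7 macrophage markers, 7 were called higher in Hampshire here (median log2 fold change 1.97) and 5 at low loin weight (median 1.98). Of 5 fibroblast markers 3, of 5 endothelial markers 2 and of 7 muscle fibre markers 2 were called higher here, and 0 of each at low loin weight. No adipocyte or blood marker was called in either comparison. Over all 12831 genes tested, 2896 were called higher in Hampshire here and 1006 at low loin weight. The part of these cells was not tested. CLOCK was lower by a log2 fold change of -3.18 (SE 0.47, adjusted p = 0.000150) and NR1D2 by -2.32 (SE 0.37, adjusted p = 0.000278). PER2 at -0.97 (SE 0.22, adjusted p = 0.00320), PER3 at -1.003 (SE 0.30, adjusted p = 0.0150) and PER1 at -1.05 (SE 0.38, adjusted p = 0.0339) were called too. ARNTL (0.21), CRY2 (-0.15) and DBP (-0.25) were not. In CLOCK, NR1D2, PER2 and PER3 no Hampshire pig reached the Pietrain range, where 24.6% of all genes lay lower without overlap and 48.7% did not overlap in either direction. The median of the 8 was -0.98 and that of all genes 0.02.

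Of these 5, PER1 and PER3 depended on single pigs. The PER1 call was lost without Hampshire high pig 8 (adjusted p = 0.121), Hampshire high pig 9 (0.127), Pietrain high pig 1 (0.0846) or Pietrain high pig 2 (0.0751). PER3 was lost without Hampshire high pig 9 (adjusted p = 0.0588), and after the trend with gene length was removed (-0.34, adjusted p = 0.311). The same removal shifted the median of all genes from 0.02 to 0.28, and left CLOCK untested for want of coordinates. NR1D2 (-1.94), PER2 (-0.64) and PER1 (-0.91) passed after it.

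By the means of the 4 groups, NR1D2 was ordered from 74.1 ± 34.3 CPM in Hampshire high (SD, n = 3) over 180.2 ± 8.13 in Hampshire low (n = 3) and 369.7 ± 178 in Pietrain high (n = 4) to 439 ± 61.1 in Pietrain low (n = 3). The last pair of neighbours overlapped in range and the earlier ones did not. CLOCK went from 0.503 ± 0.271 CPM in Hampshire high over 3.39 ± 0.394 in Hampshire low to 4.54 ± 2.11 in Pietrain low and 4.55 ± 1.07 in Pietrain high, and only the first of these groups stood clear of its neighbour. PER2 had 9.84 ± 1.55 CPM in Hampshire high, then 19.3 ± 2.15 in Pietrain high, 22.7 ± 6.402 in Hampshire low and 24.5 ± 5.59 in Pietrain low, again with a gap only after the first group.

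In CLOCK, PER2 and NR1D2 the Hampshire pigs with high loin weight were the 3 lowest of all 13 pigs. Which pig was at the extreme varied by gene, a point noted after the values were seen. Pig 9 held the lowest level of all 13 pigs in DBP, NR1D2, PER2 and PER3, and the highest level of ARNTL. Pig 8 held the lowest PER1 and pig 10 the lowest CLOCK. In Pietrain, high pig 1 held the highest level of PER1, PER3 and CRY2. The share of all genes at their lowest or highest in each pig was not counted.

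**Figure D4:**
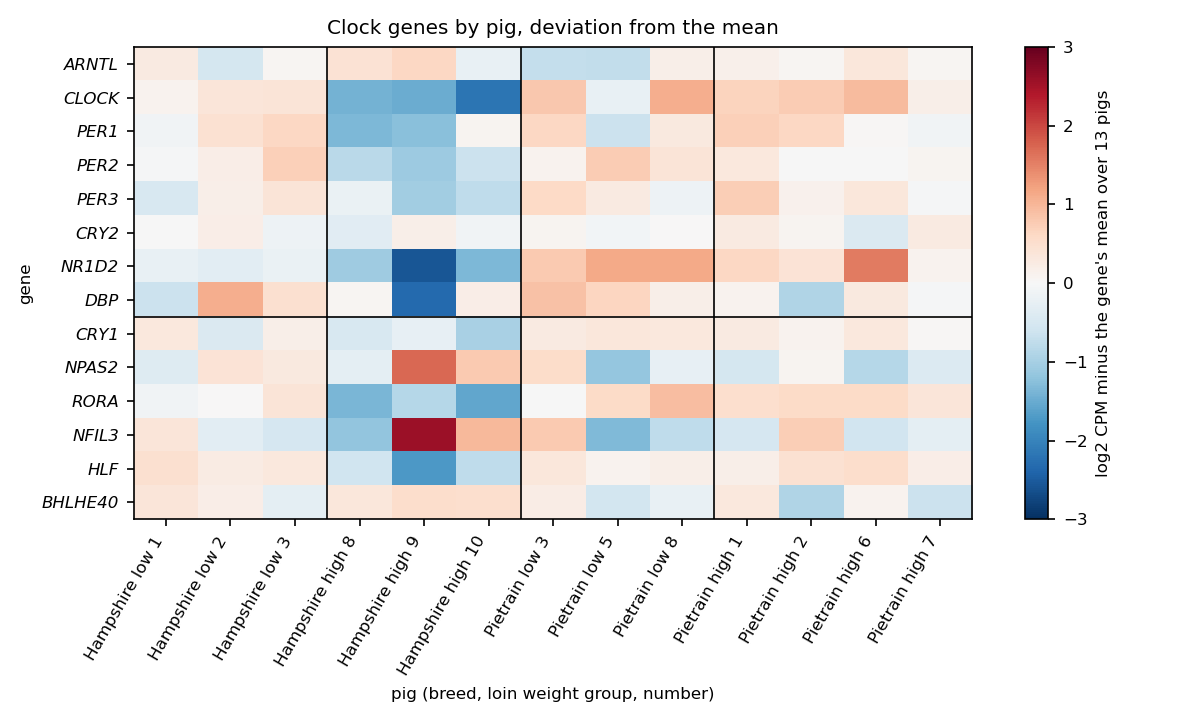
Deviation of log2 CPM from each gene's mean over the 13 pigs, with a column per pig, the 8 clock genes above the horizontal line and 6 other clock genes under it; vertical lines part the 4 groups, and red is above and blue below the mean. The column of Hampshire high pig 9 is the bluest for DBP and NR1D2 and the reddest for NPAS2 and NFIL3.

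Since ARNTL is known to cycle out of phase with its repressors, its log2 CPM was set against that of the other 7 genes over 13 pigs. Over all pigs the 7 Pearson correlations lay between -0.17 for CLOCK and -0.70 for DBP, pooled over 4 groups with different means. The negative sign did not hold throughout within breeds, since in Pietrain r was 0.54 for CLOCK and 0.30 for PER1 (n = 7, exact permutation adjusted p = 0.556 and 0.771). With the group means taken out, r was 0.58 for CLOCK and 0.0062 for NR1D2. Only DBP passed by permutation (r = -0.70, p = 0.00604, adjusted over the 7 relations p = 0.0423), and its Spearman rho of -0.659 did not (permutation p = 0.0169, adjusted p = 0.118). The DBP relation no longer passed in 8 of 13 sets that left out 1 pig (Hampshire low pigs 1 and 2, Hampshire high pigs 9 and 10, Pietrain low pigs 3 and 5, Pietrain high pigs 1 and 7), nor with group-centred values. Without Pietrain low pigs 3 and 5 together, the farthest from the ARNTL median, r was -0.68 and no longer passed (permutation p = 0.0283, adjusted p = 0.114). Within Hampshire r was -0.81 (n = 6, exact permutation p = 0.0403, adjusted p = 0.214) and within Pietrain -0.60 (n = 7, exact permutation p = 0.187, adjusted p = 0.556). PER2 had r = -0.52 over 13 pigs (permutation p = 0.0673, adjusted p = 0.236). ARNTL rested on 6 to 25 counts per pig, which adds counting error to each of these values.

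After the mean of each group was taken out, the genes most like ARNTL over the 13 pigs, of 11605 genes tested in both breeds, were PHTF2 (Pearson r = 0.90), FBXO9 (0.85) and KATNBL1 (0.85), with 2 genes without a symbol among the first 5. The most opposite were EXD3 (-0.91), EFS (-0.89), DNMBP (-0.88) and EMILIN1 (-0.86), with a gene named only after its clone among them (-0.89). For NR1D2 the highest were SPOPL (0.97), C2CD5 (0.96), HS3ST5 (0.95), MBTD1 (0.95) and a gene named only after its clone (0.95), and the lowest CAND1 (-0.96), MARCH2 (-0.94), OGFOD3 (-0.93), ANKRD39 (-0.93) and SERF2 (-0.93). None of the 8 clock genes was among these. DBP had r = -0.59 with ARNTL and 0.62 with NR1D2, and CRY2 had r = -0.86 with NR1D2. These values describe 13 libraries and carry no test.

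A list of 20 other clock genes was followed beside them, of which 18 were matched and 17 tested. In Hampshire, 1 was called higher and 3 lower with high loin weight, against 26.6% of all genes tested, and the median of the 17 was -0.11. RORA, an activator of ARNTL, was at 9.98, 10.9 and 14.2 CPM with low and at 3.88, 5.82 and 3.33 CPM with high loin weight, without overlap. RORA had a log2 fold change of -1.44 (SE 0.26, adjusted p = 0.00690) and was called in all 6 fits that left out a pig. With the length trend removed it was smaller, at -0.94 (adjusted p = 0.0441).

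HLF, a D-box factor related to DBP, was at 4.29, 3.597 and 3.78 CPM in Hampshire pigs with low and 1.77, 0.545 and 1.53 CPM in those with high loin weight. The groups did not overlap, and HLF fell by 1.57 on the log2 scale (SE 0.40, adjusted p = 0.0216), a call lost without low pig 1 (adjusted p = 0.0535) or low pig 3 (adjusted p = 0.0678). FBXW11, a ubiquitin ligase adaptor that marks PER proteins for degradation, changed by -1.35 (SE 0.35, adjusted p = 0.0248) and was not called without low pig 1 (0.0559), without low pig 3 (0.0777) or with the length trend removed (0.102). PPP1CA, a catalytic subunit of protein phosphatase 1, was higher by 0.60 (SE 0.17, adjusted p = 0.0335), and was called in 1 of 6 fits that left out a pig, the one without low pig 2, and not with the length trend removed (0.236).

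**Figure D5:**
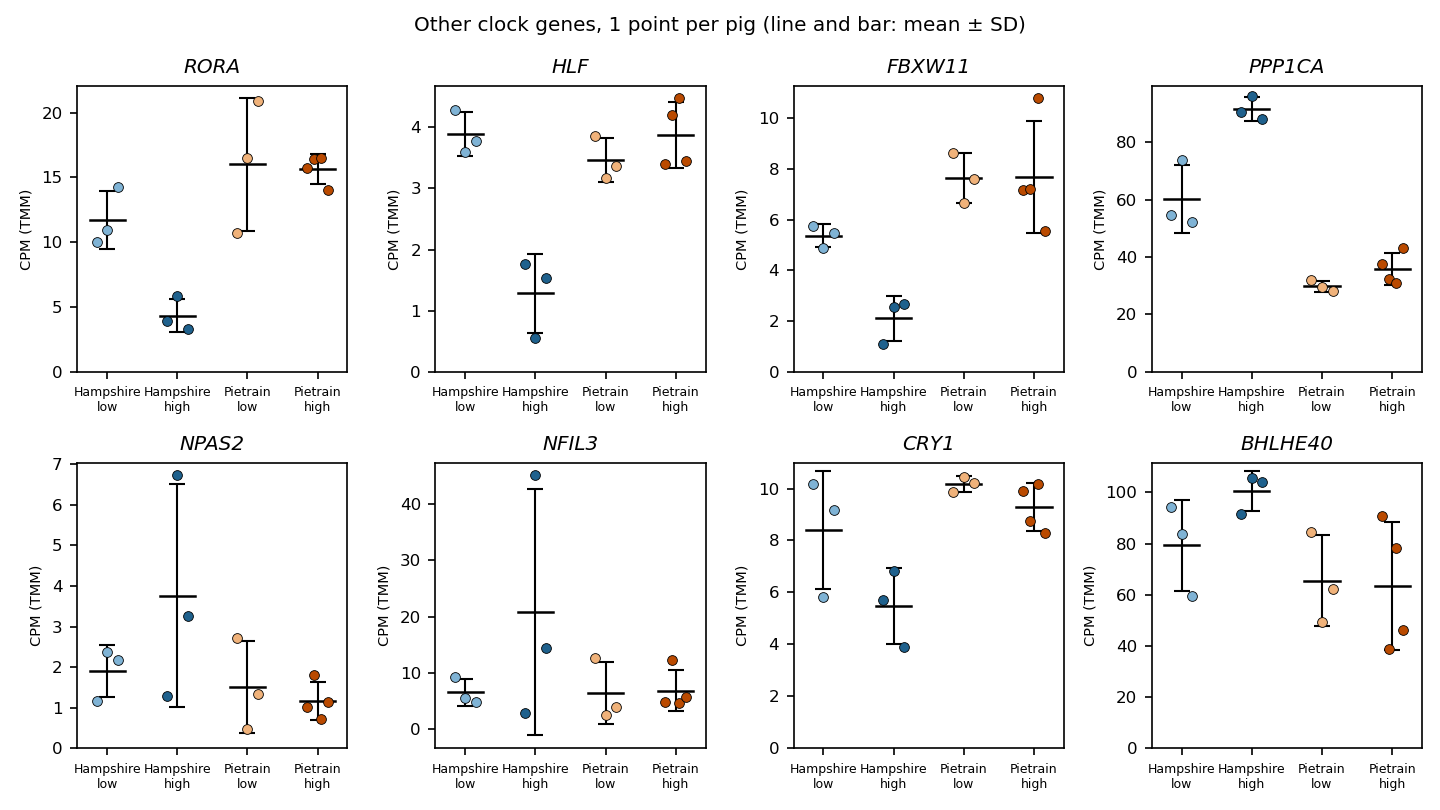
Level in each pig of 8 other clock genes, in CPM after TMM normalization, with 1 point per pig and the mean ± SD of each group as a line and bar; the axes differ between genes. RORA, HLF and FBXW11 lie lowest in the 3 Hampshire pigs with high loin weight, and a single pig of that group holds the top value of NPAS2 and NFIL3.

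NPAS2, a stand-in for CLOCK as partner of ARNTL, was at 1.16, 2.38 and 2.17 CPM in Hampshire pigs with low and at 1.29, 6.73 and 3.26 CPM in those with high loin weight. The groups overlapped, and the change was 0.96 on the log2 scale (SE 0.55, adjusted p = 0.219). NFIL3, the repressor that competes with DBP at D-boxes, was at 9.37, 5.64 and 4.90 CPM with low and at 2.86, 45.1 and 14.4 CPM with high loin weight. The log2 fold change of NFIL3 was 1.63 (SE 0.76, adjusted p = 0.138). It was 0.36 without high pig 9, while without high pig 8 it was 2.11 and called (adjusted p = 0.0181). CRY1, the partner of CRY2, had -0.63 (SE 0.29, adjusted p = 0.137), and BHLHE40, which competes with the ARNTL and CLOCK pair, had 0.34 (SE 0.20, adjusted p = 0.237).

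None of the 17 was called within Pietrain by edgeR, none passed at an unadjusted p under 0.05, and their median was -0.00037. The loin weight effect differed between the breeds for 2 of the 17, against 5.90% of all genes tested. RORA differed by -1.40 (SE 0.36, adjusted p = 0.0382) and HLF by -1.73 (SE 0.47, adjusted p = 0.0440). RORA held in 5 of 13 fits that left out a pig and was lost without Hampshire low pigs 2 and 3, Hampshire high pigs 8 and 10, Pietrain low pigs 3 and 5 and Pietrain high pigs 1 and 2, with a highest adjusted p of 0.0887. It was also lost with the length trend removed (-0.82, adjusted p = 0.237). HLF held in 3, those without Hampshire high pig 8, Pietrain high pig 6 or Pietrain high pig 7, and its highest adjusted p was 0.0852.

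Between breeds, PPP1CA, PPP1CB and BTRC were called at both loin weights. With low loin weight, PPP1CA (1.01), CSNK1D (0.79) and CSNK1E (0.63), casein kinases that phosphorylate PER, and TIMELESS (2.00) were higher in Hampshire, and PPP1CB (-1.07) and BTRC (-0.56), which serve in the dephosphorylation or the turnover of PER, were lower. That is 6 of 17 against 17.9% of all genes. TIMELESS and CSNK1D lost the call in all 6 fits that left out a pig, CSNK1E and BTRC kept it only without Pietrain low pig 3, PPP1CB only without Hampshire low pig 1 or Pietrain low pig 3, and PPP1CA in all but those without Hampshire low pig 2 or Pietrain low pig 8. With the length trend removed BTRC (-0.37, adjusted p = 0.229) and CSNK1D (0.62, adjusted p = 0.104) were not called, and CSNK1E was not in a fit of the 2 groups alone (adjusted p = 0.0526). With high loin weight 3 of 17 were higher and 6 lower, near the background of 46.8% of all genes called. The lower genes were RORA (-1.86), FBXW11 (-1.86), HLF (-1.56), PPP1CB (-1.48), CRY1 (-0.77) and BTRC (-0.75). The higher ones were NPAS2 (1.66), PPP1CA (1.35) and BHLHE41 (0.74). CRY1 was lost without Hampshire high pig 10 (adjusted p = 0.0760), NPAS2 without Hampshire high pigs 9 and 10 or Pietrain high pigs 1 and 6 (up to 0.251), and BHLHE41 without Hampshire high pig 8 or Pietrain high pig 2 (up to 0.146). With the length trend removed, the calls of BTRC (0.0052, adjusted p = 0.987), CRY1 (0.0035, adjusted p = 0.994) and BHLHE41 (0.53, adjusted p = 0.0883) were lost, and RORA (-1.08) and FBXW11 (-1.085) were smaller and still called.

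Genes known to be driven by the clock in muscle or other tissues were followed as outputs, and 9 of 10 were tested. In Hampshire 1 was called higher with high loin weight and 1 lower, against 26.6% of all genes tested. TCAP, which encodes telethonin of the sarcomere, had a log2 fold change of 1.06 (SE 0.31, adjusted p = 0.0355). COQ10B, a coenzyme Q binding protein, had -0.96 (SE 0.21, adjusted p = 0.0126). The TCAP call held only without high pig 10 among the 6 fits, and was lost with the length trend removed (0.112). COQ10B was called in all 6, and not in the fit of all 13 pigs (adjusted p = 0.0886). The median of the 9 was -0.14, and none was called in Pietrain, where none passed at an unadjusted p under 0.05 in edgeR.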

How the data were processed

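RNA of longissimus lumborum from 13 pigs was sequenced by the authors in 101 single-end cycles and 4 technical runs, from libraries of 300 ng total RNA with RIN above 7.5. After alignment to Sscrofa10.2, raw counts per Ensembl gene and pig were deposited by the authors as whole numbers, in 1 table per breed. FastQC, STAR, RSEM and DESeq2 are named in the submitters' processing notes without their roles. The annotation release is not given in the sources used here, nor how the technical runs were joined. The authors also deposited DESeq2 tables with fold changes and p-values per breed. Their comparison columns were not used, and only gene symbols and coordinates were read from them.

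Symbols came from those tables and from a RefSeq gene table of the Sscrofa11.1 assembly, used for names only. This gave 13168 of 25322 genes a symbol and 98 of 125 listed symbols a gene. ARNTL was matched through its synonym BMAL1.

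Counts were fitted with edgeR 4.0.16 in R 4.3.3 (filterByExpr by group, TMM, glmQLFit and glmQLFTest). Each breed was fitted on its own for high against low loin weight, and all 13 pigs in 1 fit for the difference between breeds and for Hampshire against Pietrain. Calls needed a p-value under 0.05 after Benjamini-Hochberg adjustment and a 1.2-fold change or more, without the fold threshold for the difference between breeds. The difference between breeds is the log2 fold change in Hampshire minus that in Pietrain. The SE of a log2 fold change was its size divided by the square root of F. Correlations and exact tests were run on log2 CPM (pseudocount 0.5), with 100000 permutations over 13 pigs and exact enumeration within a breed (scipy 1.17.1, Python 3.11.15). Figures were drawn with matplotlib 3.10.9. In all 15 pairs within groups the pigs differed by more than the sampling noise.

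The alternatives were DESeq2 1.42.0, DESeq2's size factors, no filter, at least 10 counts in every pig, no fold threshold, other sets of pigs in the fit, removal of the trend with gene length by a lowess offset per pig, a pseudocount of 2, group-centred values, and leaving out each pig. For single genes the filters and the fold threshold were not varied. Simulation was used only to see whether edgeR and DESeq2 recovered set changes between groups. For the difference between breeds it checked the size of the set changes, without asking for a minimum number recovered. It did not cover the correlations, the permutation tests, Dixon's test or the removal of the length trend.

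The 8 clock genes were named in full. Of the other clock genes, NPAS2, CRY1, RORA, NFIL3 and BHLHE40 and every called gene were named, of further lists at most the 3 called genes with the smallest p, and for likeness the 5 genes at each end. NR1D2 took the place of NR1D1 as likeness anchor after the data were seen. The members and lists were chosen with earlier results of these data known. MicroRNA libraries, real-time PCR and promoter motifs were not analysed here, and 2 other clock genes are not reported here.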

Additional observations from a re-analysis of the deposited data

Results flagged for a closer look

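NFIL3, a repressor at D-boxes, had a single pig apart from the rest among the Pietrain pigs with high loin weight. Pig 2 was at 12.3 CPM and the other 3 pigs at 4.92, 4.67 and 5.70 CPM. The gap was larger than Dixon's critical value at 95% for 4 samples. The test was run for 16 genes in this group alone, on the same 4 pigs, and chance flags about 1 in 20 such tests.

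The loin weight effect differed between Hampshire and Pietrain for CLOCK (-2.76), HLF (-1.73) and RORA (-1.40), each the log2 fold change in Hampshire minus that in Pietrain, tested with edgeR on all 13 pigs. CLOCK was lower with high loin weight in Hampshire (-2.77) and near 0 in Pietrain (0.02). HLF had -1.57 and 0.19, and RORA -1.44 and 0.00, in the same order. Of all genes tested 5.90% passed. The call held in all 13 fits that left out a pig for CLOCK, in 3 for HLF and in 5 for RORA. RORA also lost it with the length trend removed (adjusted p = 0.237).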

How the results depend on the processing

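The counts of clock genes called were the same, or within 1.5 times, under most alternatives. In the difference between breeds, 1 gene was called and 0 with at least 10 counts in every pig, since that filter dropped CLOCK, and leaving out single pigs gave 1 to 2. Leaving out single pigs gave 2 to 4 for Hampshire, 0 to 0 for Pietrain, 0 to 1 for the breeds at low loin weight and 3 to 5 at high loin weight, the lowest without Hampshire high pig 9. For the ARNTL correlations it gave 0 to 1, with 0 in 8 of 13, and 0 with group-centred values. With the trend with gene length removed, CRY2 reversed to 0.085 in Hampshire, 0.093 in the difference between breeds and 0.22 between breeds at high loin weight, CRY1 to 0.055 and 0.0035 in the last 2 of these, and BTRC to 0.0052 at high loin weight, where CRY1 and BTRC lost their calls. CLOCK in Pietrain was -0.0032 in 1 fit of all pigs. Log2 fold changes that were not called and changed sign when a pig was left out were, in Pietrain, CLOCK (-0.32 to 0.34), PER1 (-0.094 to 0.52), PER3 (-0.085 to 0.34), RORA (-0.19 to 0.25), NPAS2 (-0.77 to 0.40), NFIL3 (-0.29 to 1.12) and BHLHE40 (-0.22 to 0.24). In the difference between breeds it was DBP (-0.56 to 0.27). Between breeds at low loin weight they were DBP (-0.53 to 0.25), PER1 (-0.11 to 0.51), PER2 (-0.31 to 0.069), PER3 (-0.36 to 0.062), CRY2 (-0.031 to 0.15), NPAS2 (-0.088 to 1.10) and NFIL3 (-0.33 to 1.06), and at high loin weight DBP (-0.66 to 0.17) and ARNTL (-0.060 to 0.45). The cause was not tested. The removal moved the median of all genes to 0.14 in Hampshire, 0.25 in the difference between breeds and 0.28 at high loin weight, and could not be run for CLOCK and ARNTL, which had no coordinates. Over all genes, the 3256 called in Hampshire became 1906 after it and 1224 to 3049 without single pigs. The 757 of the difference between breeds became 1241 with DESeq2, 233 after the removal and 379 to 1052 without single pigs. The 2300 between breeds at low loin weight became 109 to 2611 without single pigs. No paired analysis was possible because the pigs were unrelated and their numbers do not pair them across groups. The low counts of ARNTL and CLOCK, and 3 or 4 pigs in a group, limit precision. Other genes with calls also had few counts in a group. TIMELESS had 5 to 13 in Pietrain low, HLF 6 to 26 in Hampshire high and NPAS2 11 to 26 in Pietrain high.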

Other observations

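Genes that respond to hormones, stimulation or heat were followed as further lists in the same fits, since they too can change with the hour or the handling of an animal. Of 11 tested genes that respond to glucocorticoids or fasting, 2 were called higher and 3 lower in Hampshire pigs with high loin weight, against 26.6% of all genes tested, with a median log2 fold change of -0.08. FOXO3, a transcription factor of atrophy and fasting, had -1.70 (SE 0.21, adjusted p = 0.00237). ANGPTL4, an inhibitor of lipoprotein lipase, had 2.34 (SE 0.35, adjusted p = 0.00376), and CEBPD, a transcription factor induced by glucocorticoids, had 1.68 (SE 0.27, adjusted p = 0.00504). The list's summed level lay at 529.9 to 675.3 CPM with high and at 486.5 to 604.5 CPM with low loin weight in Hampshire, so the groups overlapped.

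Of 8 tested heat shock and cold response genes, 1 was called higher and 3 lower with high loin weight in Hampshire, where 12.0% of all genes tested were called higher and 14.6% lower. HSPH1, a chaperone of the HSP110 family, had -1.99 (SE 0.29, adjusted p = 0.00341) and HSPA8, the constitutive HSP70, had -0.97 (SE 0.23, adjusted p = 0.0180, and over 0.05 without low pig 3 or high pig 10). RBM3, an RNA-binding protein induced by cold, had 1.41 (SE 0.26, adjusted p = 0.00747). The summed level was 1537 to 2351 CPM with high and 2437 to 3517 CPM with low loin weight in Hampshire, and 2623 to 3331 CPM and 2890 to 3952 CPM in Pietrain. The Hampshire groups did not overlap in that sum, where 45.9% of all single genes tested did not overlap either. Of 11 tested immediate early genes 2 were called lower in Hampshire, NR4A3 at -1.44 (SE 0.34, adjusted p = 0.0176) and JUN at -0.69 (SE 0.21, adjusted p = 0.0385), a share close to the 14.6% of all genes. NR4A3 was over 0.05 without low pig 3 or high pig 10, and JUN in 4 of 6 fits that left out a pig. In the fit of all 13 pigs neither was called (adjusted p = 0.159 and 0.258), and NR4A3 was not with the length trend removed (adjusted p = 0.0652). No gene of these 3 lists was called within Pietrain by edgeR, where 3 of the 11 glucocorticoid and fasting genes and none of the others passed at an unadjusted p under 0.05, against 3.30% of all genes tested.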
